A study of Mus musculus with 2 samples.

Results

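A small set of cells in the KPCA.FSTKO tumors carried Epcam transcripts, and the transcripts were concentrated in very few barcodes. Epcam-positive keratin-rich cells were taken as barcodes of the KPCA.FSTKO library in which Krt7, Krt8, Krt18 and Krt19 together made up at least 0.1% of the unique molecular identifiers (UMIs, each the count of 1 captured transcript), with 0 UMIs of Ptprc and of Pecam1 and at least 1 UMI of Epcam. Ptprc marks blood cells and Pecam1 marks endothelial cells. Of 7582 barcodes deposited for KPCA.FSTKO, 6777 had a mitochondrial share under 20% and more than 200 and fewer than 8000 genes. Of these, 3487 were keratin-rich and 65 carried Epcam, out of 11826 barcodes in the whole series.

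The tumors grew from KPCA, a line of mouse fallopian tube epithelial cells with engineered mutations, Trp53 among them, that overexpresses Ccne1 and Akt2, grafted into the peritoneal cavity of female C57BL/6 mice aged 12 to 16 weeks. KPCA.FSTKO lacks the follistatin gene Fst and was made from 1 resistant clone of KPCA, and KPCA.FSTKO_hFSTL3 is a stable clone of it that carries a human FSTL3 transgene. Omental tumors were taken at day 10 and 4 were pooled per genotype, so each genotype is 1 library with no replicate. No test was made for that reason, and every interval given is a 95% interval for counting error only.

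The KPCA.FSTKO library held 168214773 UMIs and the KPCA.FSTKO_hFSTL3 library 80391504 UMIs in 4244 barcodes. The same 12 barcodes occurred in both libraries, and 0 of the 65 Epcam-positive cells was among them. In keratin-rich cells the median mitochondrial share was 3.37% in KPCA.FSTKO and 10.9% in KPCA.FSTKO_hFSTL3, and pancreatic acinar transcripts took 0.00906% and 0.599% of UMIs.

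EPCAM is a membrane glycoprotein of simple epithelia that holds neighbouring cells together and is widely used to recognise carcinoma cells. Epithelial cells are sealed at their apical side by tight junctions, in which claudins span the gap between cells, and are held together by adherens junctions built on E-cadherin (Cdh1) and by desmosomes anchored to keratin filaments. EPCAM binds claudin-7 directly at the cell border. In epithelial-mesenchymal transition the factors of the ZEB, SNAIL and TWIST families repress such genes, and cells gain vimentin, N-cadherin and matrix proteins. Ovarian and fallopian tube carcinomas commonly hold both kinds of expression.

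Epcam (chr17:87635979-87651129, plus strand, mm10), Cldn4 (chr5:134945119-134946934, minus strand) and Cldn7 (chr11:69964779-69967885, plus strand) were among the genes with the largest ratios below, Epcam because it chose the cells. The gene Wfdc18, with a larger ratio than Cldn4, is not shown. Promoters of the 3 genes from RefSeq (GRCm38.p6, 250 bases before to 50 bases after a start) are shown because these genes were high in the same barcodes. The promoters lie at chr17:87635729-87636028, at chr5:134946885-134947184 on the minus strand and at chr11:69965171-69965470. Capitals mark CACCTG or CAGGTG, the letters that ZEB and SNAIL factors are known to bind, which are each other's reverse complement and were searched on both strands.
Epcam: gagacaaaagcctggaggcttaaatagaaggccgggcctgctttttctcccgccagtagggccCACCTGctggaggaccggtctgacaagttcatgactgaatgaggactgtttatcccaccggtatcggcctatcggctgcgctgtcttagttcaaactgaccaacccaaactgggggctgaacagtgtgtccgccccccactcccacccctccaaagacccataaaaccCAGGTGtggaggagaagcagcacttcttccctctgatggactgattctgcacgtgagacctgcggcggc
Cldn4: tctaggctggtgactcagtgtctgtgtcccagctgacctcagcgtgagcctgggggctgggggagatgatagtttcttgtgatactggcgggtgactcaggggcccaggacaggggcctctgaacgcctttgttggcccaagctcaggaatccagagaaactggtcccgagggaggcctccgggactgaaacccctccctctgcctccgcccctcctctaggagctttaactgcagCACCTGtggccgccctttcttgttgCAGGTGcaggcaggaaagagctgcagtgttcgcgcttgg
Cldn7: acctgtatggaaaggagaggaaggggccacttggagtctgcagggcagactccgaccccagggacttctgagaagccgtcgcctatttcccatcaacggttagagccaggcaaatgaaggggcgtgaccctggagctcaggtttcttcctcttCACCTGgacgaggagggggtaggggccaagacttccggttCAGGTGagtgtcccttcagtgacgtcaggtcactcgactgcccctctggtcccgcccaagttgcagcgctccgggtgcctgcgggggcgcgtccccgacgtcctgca
Each of these 3 windows held 2 matches, the Cldn3 and Elf3 windows held 1 each, and a second Cldn7 start at chr11:69964529-69964828 held 0. The letters occurred in 20.2% of all 32851 promoters in the table. They occurred in 68 of 199 promoters (34.2%) of genes higher in Epcam-positive cells by the rule given below, in 57 of 306 (18.6%) of genes lower and in 1701 of 10364 (16.4%) of all genes compared. By the gene lists given below, they occurred in 15 of 21 promoters of tight junction genes (71.4%) and 5 of 7 of keratins (71.4%). The counts were 12 of 18 for epithelial surface and polarity genes (66.7%) and 6 of 16 for epithelial factors (37.5%). Adherens junction and desmosome genes had 1 of 7, from 5 of 16 listed genes, and the promoter of Cdh1 was not among those searched. A gene with more than 1 start counted more than once, and the windows of Crb3, Marveld2, Ocln and Ctnnb1 overlapped. For the tight junction genes Crb3, Marveld2 and Ocln the same match lay in both overlapping windows and was counted in each. AACCGGTT, the letters known for grainyhead factors such as Grhl2, occurred in 0.146% of all promoters and in 0 of the 199.

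The number of Epcam UMIs per Epcam-positive cell ranged from 1 to 47. There were 30 cells with 1 Epcam UMI, 6 with 2, 19 with 3 to 9 and 10 with 10 or more. Those 10 cells had 47, 43, 41, 41, 34, 29, 26, 21, 17 and 14 Epcam UMIs and held 68.9% of the 454 Epcam UMIs of all 65, and the 29 cells with 3 or more held 90.7%. In CPM, the UMIs of a gene scaled to a fixed total of UMIs per cell or group, the level of Epcam was 15.7 at the lowest, 139 at the median and 2809 at the highest. These values chose the cells and describe them only.

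The share of keratin-rich cells with an Epcam UMI was close to the share in barcodes rich in macrophage markers, which need not all be macrophages. It was 1.86% of keratin-rich cells (interval 1.44 to 2.37, Clopper-Pearson, median 25639 UMIs), 2.19% of 961 barcodes with at least 5 UMIs of macrophage markers (1.36 to 3.32, median 12678 UMIs) and 1.21% of 829 barcodes with at least 20 UMIs of fibroblast markers. Both of these gates also needed a keratin share under 0.1%. The macrophage gate needed at least 1 Ptprc UMI, and the fibroblast gate 0 UMIs of Ptprc and of Pecam1. After every barcode was thinned to 5000 UMIs the 3 shares were 0.999% (0.665 to 1.44), 1.07% (0.489 to 2.02) and 0.374% (0.0772 to 1.09). Thinned to 1000 UMIs, which left out 305 rather than 684 keratin-rich cells, they were 0.534% (0.312 to 0.854), 0.209% (0.0253 to 0.751) and 0% (up to 0.445). The order of keratin-rich cells and the macrophage gate thus changed with depth, their intervals overlapped at each depth, and the share alone did not set keratin-rich cells apart. The level differed: keratin-rich cells had 4.91 Epcam CPM (4.47 to 5.38) and the macrophage gate 2.33 CPM (1.58 to 3.33). The fibroblast gate had 0.517 CPM (0.248 to 0.951). In keratin-rich cells 10 barcodes held 313 of the 454 Epcam UMIs, so that level rested on few cells. The Poisson intervals do not cover such a spread between barcodes. The most Epcam UMIs in 1 barcode were 47 in keratin-rich cells, 4 in the macrophage gate and 1 in the fibroblast gate.

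**Figure D1:**
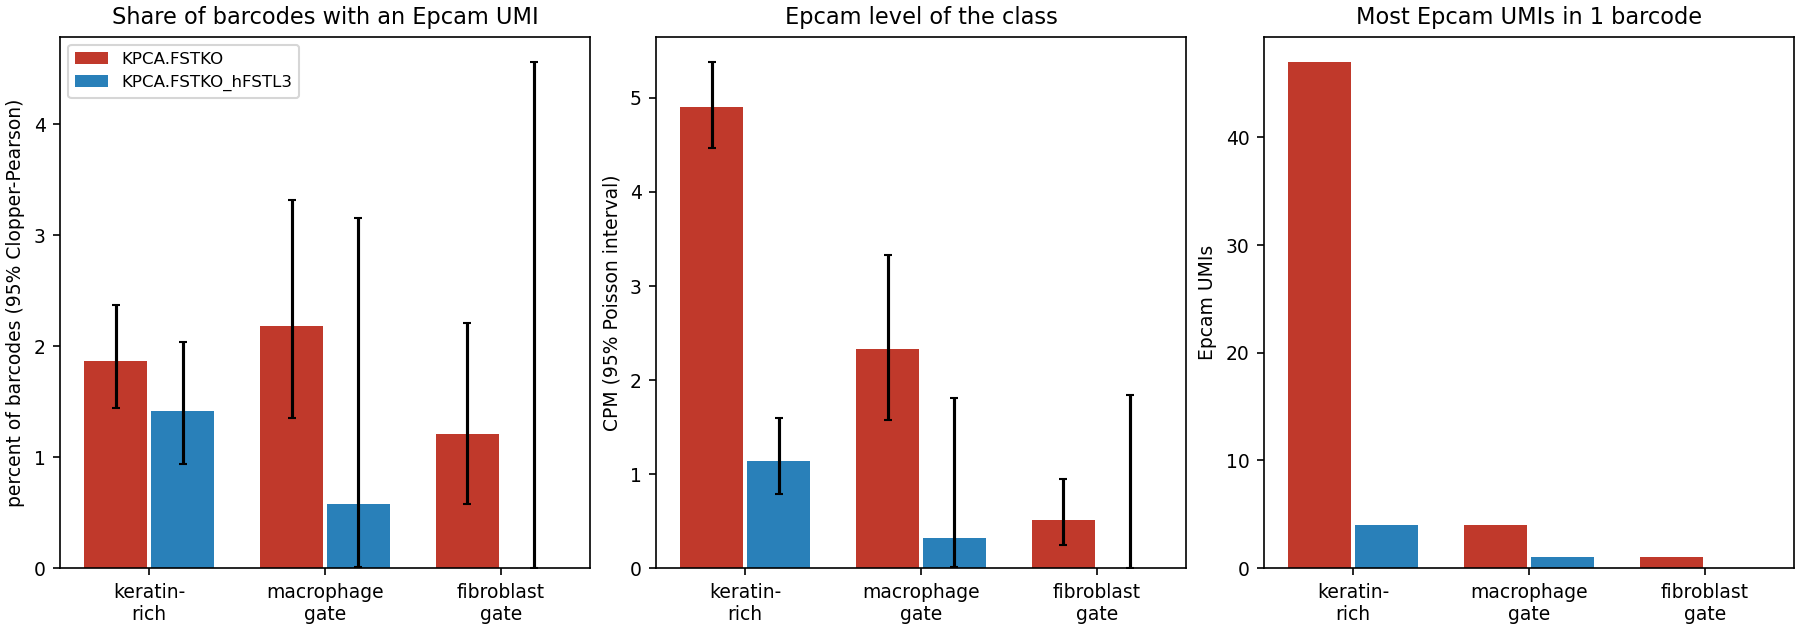
Left, percent of barcodes with an Epcam UMI (bars, 95% Clopper-Pearson intervals), middle, Epcam level in CPM (95% Poisson intervals), and right, most Epcam UMIs in 1 barcode, for keratin-rich cells and the macrophage and fibroblast gates of KPCA.FSTKO (red) and KPCA.FSTKO_hFSTL3 (blue). The shares of KPCA.FSTKO overlap within their intervals (1.86%, 2.19% and 1.21%), while the most UMIs in 1 barcode are 47, 4 and 1.

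The cut on keratin share lay close to some cells. The 3 Epcam-positive cells just inside it had keratin shares of 0.113%, 0.120% and 0.127%, and the 3 barcodes just outside had 0.0990%, 0.0950% and 0.0940%. Epcam was also found in 55 barcodes that passed the filters but not the keratin or exclusion rule, with 204 UMIs, and in 34 barcodes removed by the filters, with 435 UMIs.

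Each Epcam-positive cell was set against the 10 Epcam-negative keratin-rich cells nearest in UMIs per barcode, 650 in all. The median was 32178 UMIs in Epcam-positive and 32138 in matched cells, and UMIs within a match differed by 5.27% at most. Genes per barcode had medians of 5651 and 5551, and mitochondrial shares of 3.62% and 3.30%. The share of keratin UMIs, which the rule used, was 0.504% at the median of Epcam-positive cells and 0.254% of matched cells. UMIs of a gene were summed over each group and divided by all its UMIs, and the ratio of the CPM values is given throughout as Epcam-positive over matched. A gene was called higher where it had at least 100 UMIs over both sums, a ratio of at least 2, a UMI in at least 10% of Epcam-positive cells and still passed without the cell that had most of its UMIs, and called lower by the same rule at a ratio of at most 0.5 with a UMI in at least 10% of matched cells.

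Of 10150 genes compared, 204 were higher (2.01%) and 316 were lower (3.11%), and the median of all log2 ratios was -0.03. Without the cell with most Epcam UMIs, 191 were higher and 302 lower, of which 185 and 286 were also called with it. The Epcam-positive cells were chosen by Epcam in the same barcodes, so these counts describe the cells and support nothing beyond them. The 12 genes with the largest ratios besides Epcam were Cldn7, Wfdc18, Cldn4, Lama3, Prom1, Pglyrp1, S100a14, Mal, Lcn2, Crisp1, Crb3 and Smpd3, with ratios from 689 down to 12.5. The 8 with the smallest were Htr2a, Cthrc1, Gm35507, Col8a1, Mcm5, Sema5a, Ak5 and Syt17, with ratios up to 0.14. Htr2a, which encodes a serotonin receptor, had 0 UMIs in Epcam-positive and 145 in matched cells, at least 4.84-fold lower when the 0 is set to 3 counts over the group. Cthrc1, a secreted matrix protein gene, had 2 and 302 UMIs, and the collagen gene Col8a1 had 3 and 283.

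**Figure D2:**
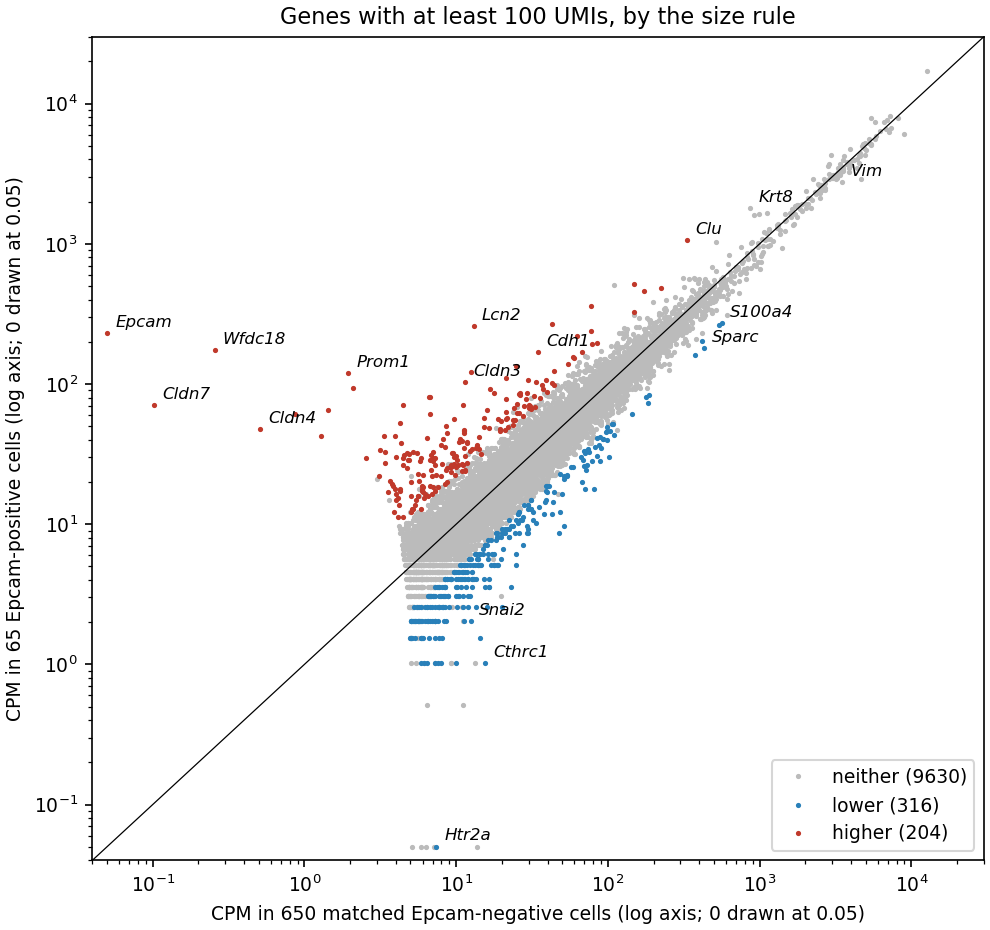
Level of each of 10150 genes in the 650 matched Epcam-negative cells (x axis, CPM, log axis) against the 65 Epcam-positive cells (y axis, CPM, log axis), with the 204 genes called higher and the 316 called lower in color. Most genes lie along the diagonal (median log2 ratio -0.03), and Cldn7, Cldn4 and Prom1 stand far above it.

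Most tight junction genes with enough UMIs to compare were higher in Epcam-positive cells. Of 17 genes listed, 9 had enough UMIs to compare, 7 were higher and 0 lower, with a median log2 ratio of 1.99 against -0.03 over all genes. Cldn7 (138 and 2 UMIs) and Cldn4 (94 and 10) reached 100 UMIs only through Epcam-positive cells, which can raise the count and the median. Summed over all listed genes, the ratio was 1.07 (0.96 to 1.20) in the 30 cells with 1 Epcam UMI. Among those 7 were Cldn7, Cldn4, Crb3, Cldn3, Cldn6 and Patj.
Cldn7, the claudin that EPCAM binds, ranged from 0 CPM over a median of 0 to 1401 CPM in Epcam-positive cells, with a UMI in 20 of 65, and from 0 over 0 to 41.9 CPM in matched cells, with a UMI in 2 of 650. Its sums were 138 and 2 UMIs, a ratio of 689 (187 to 5746) and of 599 without the cell with most Epcam UMIs. Cldn7 was thus nearly confined to Epcam-positive cells among the barcodes compared, though 45 of the 65 had no Cldn7 UMI.
Cldn4, a claudin that tightens the junction, had a UMI in 21 of 65 Epcam-positive cells (0 CPM at the median, 712 at the highest) and in 5 of 650 matched cells (96.7 CPM at the highest). Its ratio was 93.9 (48.8 to 202), and 82.9 without the cell with most Epcam UMIs. Cldn3, a sealing claudin as well, was also found in matched cells, in 83 of 650 with 582 CPM at the highest, and in 33 of 65 Epcam-positive cells with a median of 15.7 and a highest value of 701 CPM. Its ratio was 8.96 (7.38 to 10.9). The level of Cldn3 in matched cells was 11.5 CPM, above the 0.102 CPM of Cldn7 and the 0.511 CPM of Cldn4.
The polarity genes Crb3 (12.9, interval 9.22 to 18.1) and Patj (3.80, 3.03 to 4.73) and the claudin gene Cldn6 (3.98, 2.86 to 5.48) were higher by smaller ratios. The scaffold gene Tjp1 (0.91, 0.82 to 1.02) and F11r, which encodes the junctional adhesion molecule JAM-A (1.21, 1.03 to 1.41), lay near 1, with medians of 136 and 62.9 CPM in Epcam-positive and 154 and 52.5 CPM in matched cells. The other 8 genes had under 100 UMIs. Among them Ocln, which encodes occludin, had 33 UMIs in Epcam-positive and 14 in matched cells, Tjp3 had 16 and 2, and Cldn1 had 3 and 67.

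Genes of adherens junctions and desmosomes had fewer calls. Of 16 listed, 8 were compared, 2 were higher (Cdh1 and Dsp) and 0 lower, with a median log2 ratio of 0.82. Cdh1, which encodes E-cadherin, had a median of 92.8 and a highest value of 1506 CPM in Epcam-positive cells, with a UMI in 43 of 65. In matched cells its median was 0 and its highest value 1041 CPM, with a UMI in 259 of 650. The summed levels were 169 and 34.5 CPM, a ratio of 4.91 (4.29 to 5.61) with and 4.87 without the cell with most Epcam UMIs, so the ranges overlapped while the level in the sum was higher. Dsp, which encodes the desmosomal plaque protein desmoplakin, had a UMI in 30 of 65 and 74 of 650 cells and a ratio of 6.27 (4.51 to 8.65). The catenins that link cadherins to actin were expressed in both groups, Ctnnd1 at a ratio of 1.85, Ctnna1 at 1.28 and Ctnnb1 at 1.19, and Jup at 1.68, all under the size required. The desmosomal plakophilin gene Pkp2 had a ratio of 2.08 but lost the size without the cell with most Pkp2 UMIs. The desmosomal cadherin genes Dsg2 (41 against 14 UMIs) and Dsc2 (11 against 9) and the plakophilin gene Pkp3 (20 against 8) had under 100 UMIs.

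Keratins were part of the rule, and their values are a description. Of 12 listed, 5 were compared and 1, Krt7, was higher at 2.70 (2.50 to 2.90). Krt8 had a median of 1560 CPM in Epcam-positive and 693 CPM in matched cells, and a ratio of 2.06 that was 1.99 without the cell with most Epcam UMIs. Krt18 had medians of 1383 and 809 CPM and a ratio of 1.63, Krt20 a ratio of 1.62 and Krt19 one of 1.46. Krt5 and Krt6a, keratins of stratified epithelia, had 0 UMIs in both groups, Krt14 had 0 and 7, and Krt17 had 0 and 1. Both groups thus expressed the keratins of simple epithelia.

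**Figure D3:**
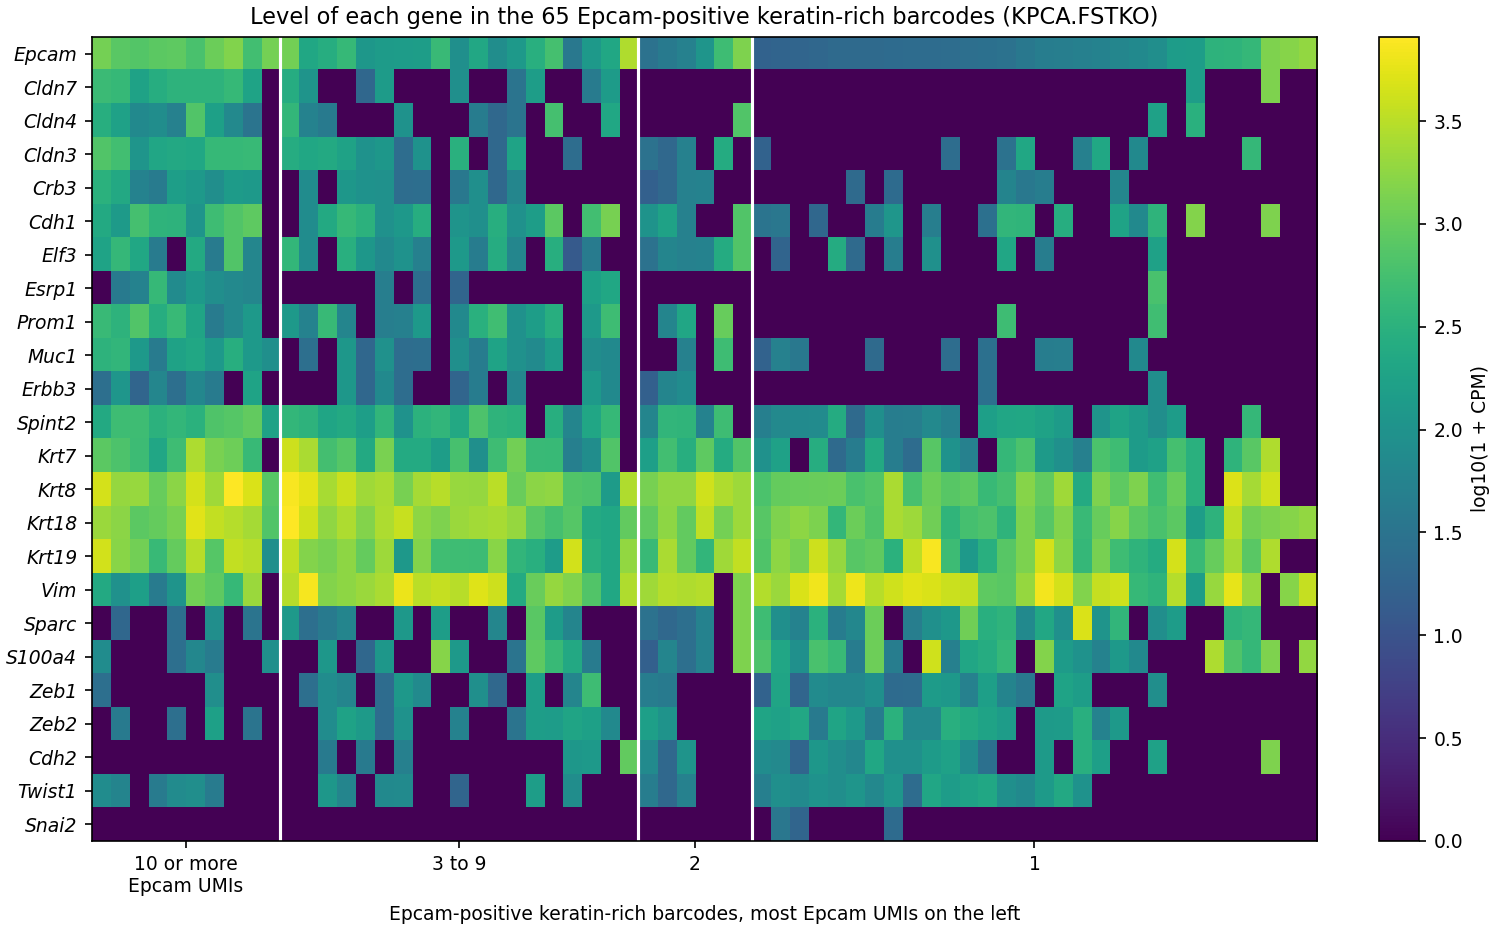
Level of selected genes (rows, log10 of 1 plus CPM, color scale) in each of the 65 Epcam-positive keratin-rich cells of KPCA.FSTKO (columns), ordered by Epcam UMIs from most on the left and grouped as 10 or more, 3 to 9, 2 and 1. Claudins and Cdh1 fill the columns of 9 of the 10 cells with 10 or more Epcam UMIs and become sparse toward cells with 1 UMI, while Vim does the reverse.

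Most membrane and polarity genes of epithelia with enough UMIs to compare were also higher in Epcam-positive cells. Of 23 listed, 9 were compared, Epcam included, 7 were higher and 0 lower, and the median log2 ratio without Epcam was 1.77. Besides Epcam these were Prom1, Mal2, Muc1, Spint2, Lad1 and Cd24a. Prom1, which encodes the protrusion protein prominin-1 (CD133), had a UMI in 29 of 65 Epcam-positive cells, up to 1002 CPM, and in 21 of 650 matched cells, up to 687 CPM. Its ratio was 61.5 (43.5 to 89.1). Muc1, a transmembrane mucin, had 120 and 132 UMIs and a ratio of 9.08 (7.03 to 11.7), and Mal2, which acts in transport to the apical membrane, had 83 and 77 UMIs and a ratio of 10.8 (7.80 to 14.9). Spint2, an inhibitor of membrane serine proteases, had medians of 175 and 29.1 CPM and a ratio of 3.52 (3.15 to 3.94). Cd9 was high in both groups, at medians of 424 and 310 CPM, with a ratio of 1.34. Further genes had under 100 UMIs, most of them in Epcam-positive cells. Rab25, a small GTPase of epithelial recycling, had 35 against 1 UMIs, the protease gene St14 32 against 1, Fxyd3 32 against 1 and Tspan1 75 against 13.

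Transcription and splicing factors of epithelia were mostly rare in the data. Of 21 listed, 7 were compared, 3 were higher (Elf3 and Ehf among them) and 0 lower, with a median log2 ratio of 0.74. Elf3, an ETS factor of epithelial cells, had a median of 29.1 and a highest value of 712 CPM in Epcam-positive cells, with a UMI in 36 of 65, and a UMI in 68 of 650 matched cells, up to 2060 CPM. Its ratio was 12.03 (9.49 to 15.3). The related factor gene Ehf had a ratio of 2.49 (2.10 to 2.93). Esrp1, a splicing factor of epithelial cells, had 57 and 8 UMIs, and Grhl2 had 24 and 19. Klf4 (1.67), Klf5 (1.19), Foxa2 (0.94) and Sox9 (0.75) were found in both groups without reaching the size required.

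Some mesenchymal genes were lower in Epcam-positive cells. Of 18 genes listed for epithelial-mesenchymal transition, 16 were compared, 6 were lower and 0 higher, with a median log2 ratio of -0.78. The 6 were Snai2, Prrx1, Sparc, Tgfbi, Zeb1 and S100a4. Zeb1, a repressor of Cdh1, had a UMI in 33 of 65 Epcam-positive cells (median 15.7, highest 495 CPM) and in 451 of 650 matched cells (median 51.9, highest 1873 CPM), and a ratio of 0.48 (0.39 to 0.59). Snai2, which encodes SLUG, had 4 UMIs in 3 Epcam-positive cells and 244 UMIs in 145 matched cells, a ratio of 0.16 (0.04 to 0.42). Sparc, a matrix protein gene, had medians of 45.7 and 261 CPM and a ratio of 0.42 (0.38 to 0.47), and S100a4 medians of 53.7 and 238 CPM and a ratio of 0.49 (0.44 to 0.53). The intermediate filament gene Vim stayed high in most Epcam-positive cells, with a median of 2134 CPM against 3072 in matched cells and a ratio of 0.78 (0.76 to 0.81). Cdh2, which encodes N-cadherin (0.52), Twist2 (0.58), Twist1 (0.59), Axl (0.60), Zeb2 (0.61), Itga5 (0.85), Fn1 (0.90) and Mmp14 (1.02) did not reach the size required.

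**Figure D4:**
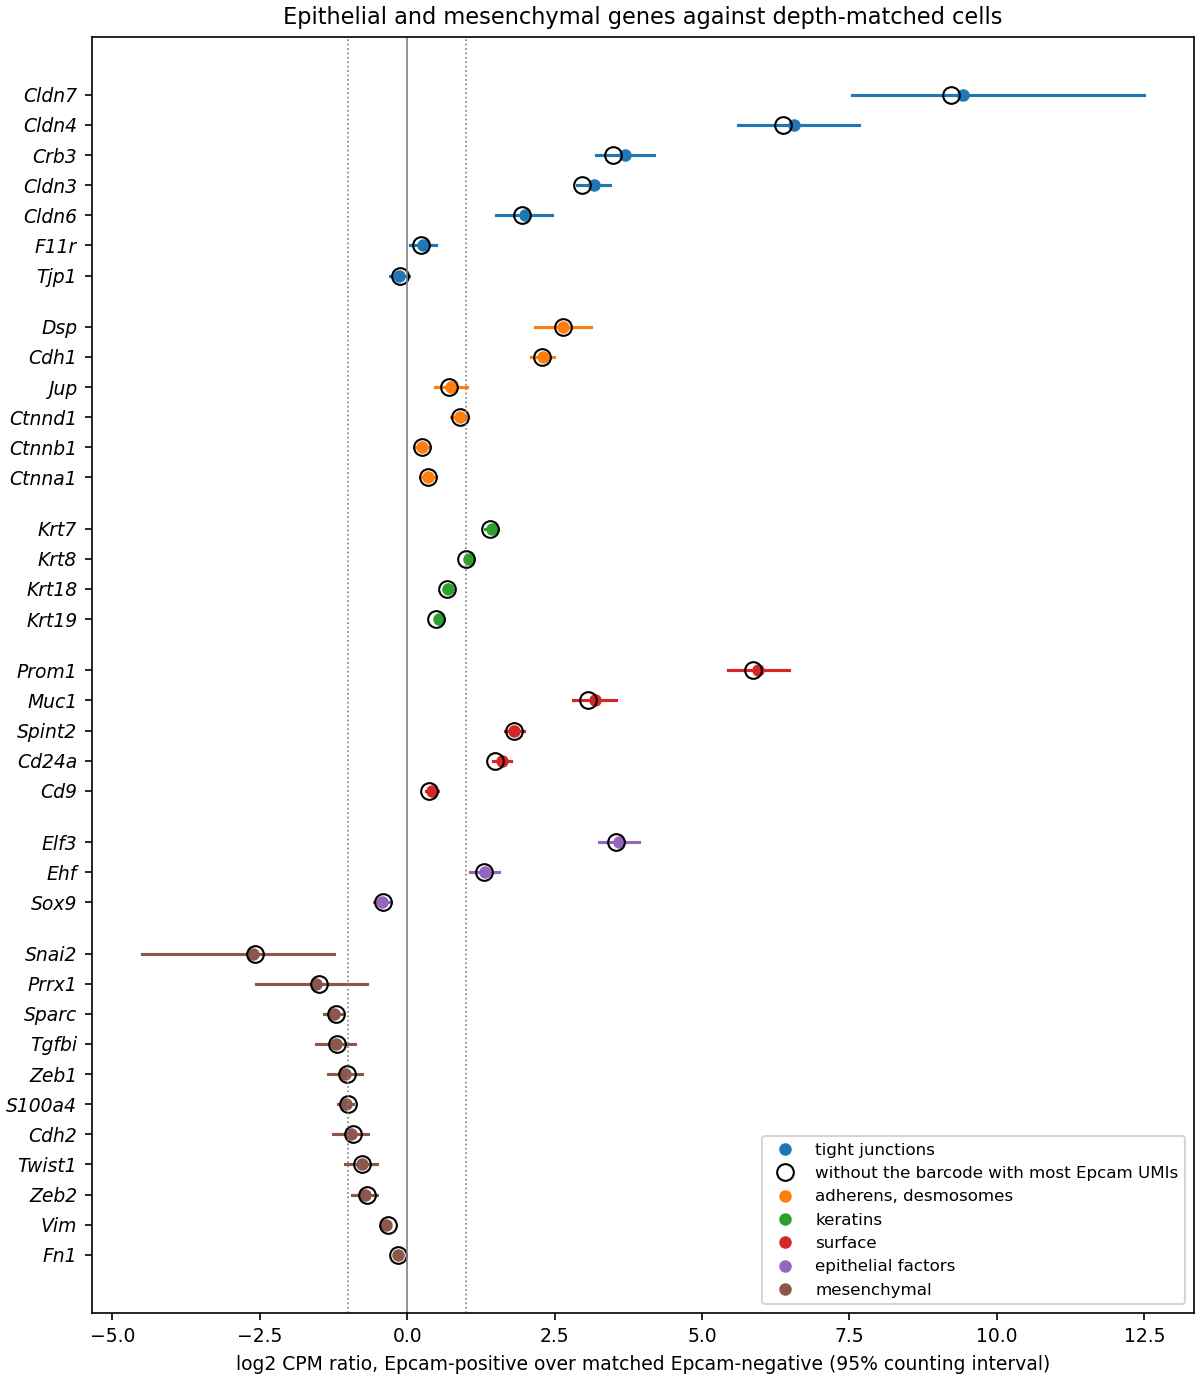
log2 ratio of CPM, Epcam-positive over matched Epcam-negative cells (x axis, filled points, lines for 95% counting intervals), for selected genes of 6 groups, with the ratio without the cell with most Epcam UMIs as open circles and dotted lines at ratios of 2 and 0.5. Cldn7 (689) and Cldn4 (93.9) lie farthest to the right and Snai2 (0.16) farthest to the left, and the open circles lie close to the filled points.

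With cells grouped by number of Epcam UMIs, the contrast of the genes given was largest in cells with 10 or more. These groups were made on the readout that chose the cells, so their order is a description. Cldn7 had 2.41 CPM in the 30 cells with 1 Epcam UMI, 0 CPM in the 6 with 2, 41.1 CPM in the 19 with 3 to 9 and 307 CPM in the 10 with 10 or more, against at most 0.275 CPM in the matched cells of each group. In the last group it had 112 UMIs against 1. Cldn4 had 4.81, 5.51, 34.3 and 189 CPM in the same order, and in the last group 69 UMIs against 0, at least 230-fold higher when the 0 is set to 3 counts over the group. The Cdh1 ratio was 1.84 (1.38 to 2.41), 4.22 (2.33 to 7.37), 6.44 (5.06 to 8.17) and 12.4 (9.56 to 16.2). The Elf3 ratio was 4.28, 11.1, 13.2 and 50.7, and the Prom1 ratio 9.19, 150, 128 and 198. Krt8 lay close to its matched cells in cells with 1 Epcam UMI, at a ratio of 1.10, and at 2.43, 2.73 and 3.11 in the others, while Krt19 lay at 1.43, 1.57, 1.28 and 1.85 with no such order.

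Most of the mesenchymal genes given had their lowest ratio in cells with 10 or more Epcam UMIs. Vim had 3651 CPM in cells with 1 Epcam UMI against 3437 in their matched cells, and 497 CPM in cells with 10 or more against 3623, ratios of 1.06 (1.02 to 1.10) and 0.14 (0.12 to 0.16). The ratios of Vim for 2 and for 3 to 9 Epcam UMIs were 0.78 and 0.82. Sparc had ratios of 0.75, 0.09, 0.16 and 0.03, and S100a4 of 0.96, 0.10, 0.22 and 0.04. Zeb1 had ratios of 0.68, 0.23, 0.58 and 0.07 and Zeb2 of 0.99, 0.50, 0.46 and 0.13, the last Zeb1 value from 3 UMIs against 413. Cdh2 had ratios of 0.94, 0.48 and 0.29, and 0 UMIs in all 10 cells with 10 or more against 348 UMIs in their 100 matched cells, at least 11.6-fold lower by the same 3 counts over the group. The order was not steady: Vim, Sparc, S100a4 and Zeb1 had lower ratios in cells with 2 Epcam UMIs than with 3 to 9. Zeb2 and Cdh2 fell at each step. Twist1 was not lowest in cells with 10 or more, with ratios of 0.97, 0.28, 0.29 and 0.43. Summed over all listed genes, the ratio of the mesenchymal list was 1.02, 0.62, 0.68 and 0.31 and that of the tight junction list 1.07, 1.57, 2.31 and 4.66.

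**Figure D5:**
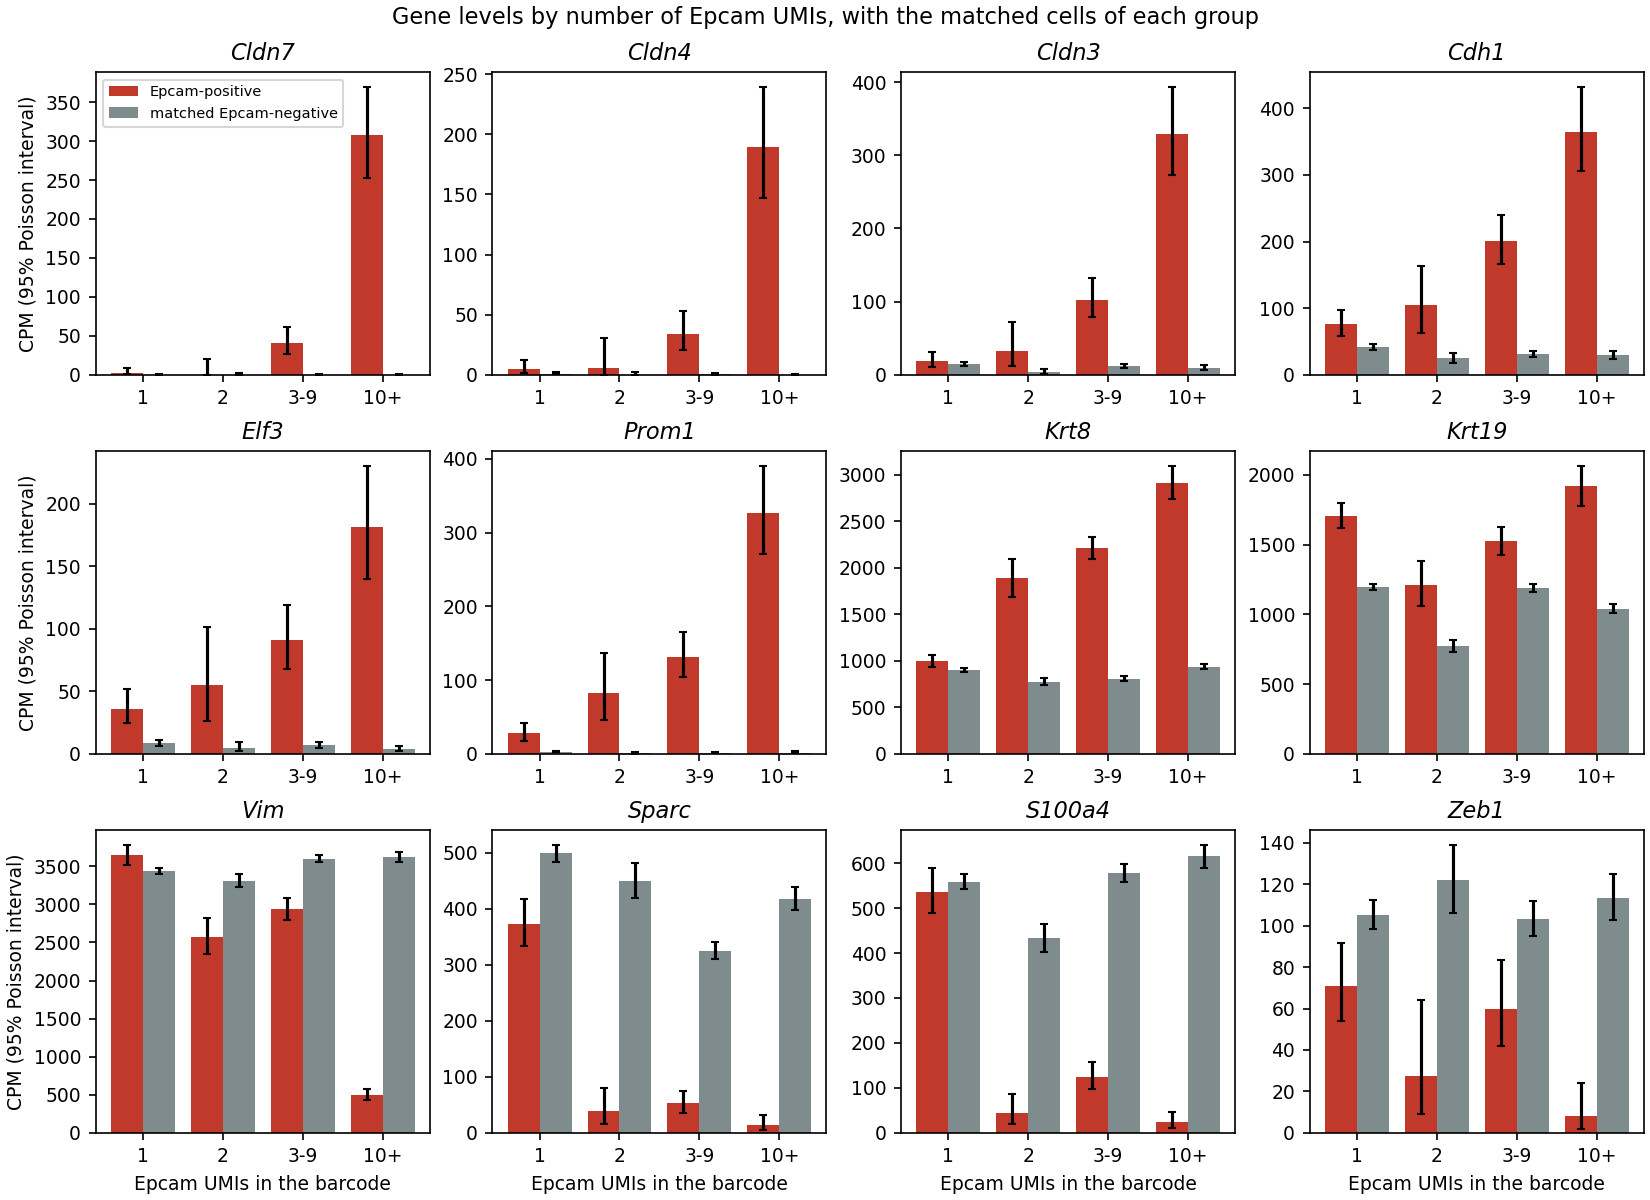
Level in CPM (y axes from 0, 95% Poisson intervals) of 12 genes in Epcam-positive cells with 1, 2, 3 to 9 and 10 or more Epcam UMIs (x axis, red) and in the matched Epcam-negative cells of each group (gray). Cldn7 reaches 307 CPM and Cdh1 365 CPM in the group with 10 or more, where Vim is at 497 CPM against 3623 CPM in its matched cells.

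The 10 cells with most Epcam were not alike. Of the cells with 10 or more Epcam UMIs, 9 had UMIs of all 4 genes Cldn3, Cldn4, Cldn7 and Cdh1. Their Vim levels were 234, 94.7, 160, 41.1, 103, 1209, 878, 417 and 2102 CPM, from the cell with 47 to the cell with 17 Epcam UMIs. The tenth, with 14 Epcam UMIs, had 0 UMIs of all 4 and of Vim. It held 964 genes in 11417 UMIs, of which 58.7% were from ribosomal protein genes, against medians of 5651 genes and 24.2% over the 65 cells. Among the other 9, the cell with most Epcam UMIs had 18 Cldn7, 11 Cldn4, 27 Cldn3 and 9 Cdh1 UMIs, and the cell with 29 had 33 Cldn4 UMIs, the most of any.

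All 4 junction genes were seen together in 11 of 65 Epcam-positive cells (16.9%, interval 8.76 to 28.3), and in 0 of 650 matched cells, which allows a share of up to 0.462%. They were found together in 9 of 10 cells with 10 or more Epcam UMIs, in 2 of 19 with 3 to 9 and in 0 of 30 with 1, which allows up to 10%. None of the 4 was found in 15 of 65 Epcam-positive and 355 of 650 matched cells. Among the cells with 1 Epcam UMI, 11 of 30 had none of the 4. Of the 204 genes called higher over all 65 cells, 96 had enough UMIs to compare in these 30 cells, and 17 of those (17.7%) had a ratio of at least 2, against 0.769% of all 8195 genes compared there. In the 55 cells with under 10 Epcam UMIs the same count was 129 of 168 (76.8%) against 2.05% of 9720. The 204 genes were picked with these cells among the 65, so part of each share is fixed by the choice.

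Several secreted proteins had high ratios that rested on few cells. Lcn2, an iron-binding protein of inflamed epithelia, had 505 and 255 UMIs and a ratio of 19.8 (17.0 to 23.1), with a UMI in 22 of 65 cells. A single cell, the one with 41 Epcam UMIs and fewer total UMIs, held 194 of the 505, and without it the ratio was 12.5. The same cell held 175 of 344 UMIs of Wfdc18, a whey acidic protein, whose ratio was 687 (292 to 2129) with and 346 without it. It also held 31 of the 38 Mki67 UMIs found in the 10 cells with most Epcam. Of 11 secreted proteins known as ovarian tumor markers, 7 were compared, 2 were higher (Lcn2 and Clu) and 1 was lower (Slpi), with a median log2 ratio of 0.14. Clu, which encodes the chaperone clusterin, was the broader of the higher ones, with medians of 687 and 142 CPM and a ratio of 3.18 (3.02 to 3.34). Wfdc2, which encodes HE4, had medians of 777 and 286 CPM and a ratio of 2.01 that was 1.92 without the cell with most Epcam UMIs, and Slpi was at 0.40 (0.20 to 0.73). Spp1, which encodes osteopontin, and Msln, which encodes mesothelin, were abundant in both groups at ratios of 0.68 and 0.77.

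Receptor and stem cell lists held 4 higher genes between them. Of 12 genes of the EGFR family, 8 were compared and 1, the ligand gene Tgfa, was higher at 3.23 (2.45 to 4.21), with a median log2 ratio of -0.08. Egfr lay at 0.72, and Erbb3 had 46 UMIs in 22 Epcam-positive cells against 9 in matched cells, under 100 in all. Of 12 Wnt target and stem cell genes, 6 were compared and 3 were higher, Prom1, Lgr4 at 6.45 (4.61 to 8.97) and Rnf43 at 3.71 (2.34 to 5.75). Lgr4 is a receptor for R-spondins and Rnf43 a ubiquitin ligase that removes Wnt receptors. Lgr5 was at 0.71 and Cd44 at 1.41. The laminin gene Lama3, a subunit of the basement membrane protein laminin-332, had 119 and 17 UMIs and a ratio of 69.9 (41.9 to 124). S100a14, a calcium-binding protein gene, had 184 and 41 UMIs and a ratio of 44.8 (31.8 to 64.5), with a UMI in 32.3% of Epcam-positive and 4.92% of matched cells. Mal, which encodes a membrane protein of apical transport, had 83 and 25 UMIs and a ratio of 33.1 (21.0 to 54.1), and the peptidoglycan recognition gene Pglyrp1 had 127 and 28 UMIs and a ratio of 45.3 (29.9 to 70.9).

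Activin and follistatin genes, the subject of the study, differed little. Of 16 listed, 12 were compared, 0 were higher and 1 was lower, Inhba at 0.45 (0.34 to 0.59), with a median log2 ratio of 0.13. Inhba encodes the subunit of activin A and had a UMI in 25 of 65 and in 366 of 650 cells. Fst, deleted in the grafted line, had 13 and 125 UMIs, levels of 6.63 and 6.38 CPM, against 47.6 CPM in the fibroblast gate. Fstl3 had 15 and 234 UMIs and a ratio of 0.64 (0.35 to 1.08). By qPCR the study found Fst expression completely lost in KPCA.FSTKO cells. Here 8 of 65 Epcam-positive and 63 of 650 matched cells held an Fst UMI. The study does not say which part of Fst was removed, so a 3-prime count may not tell an altered allele from an intact one. The source of these UMIs was not tested, and they were not used to judge the origin of a cell.

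The engineered genes did not separate the groups by the size required. The list of 8 also held Brca1, Xist and Tsix, which the study does not name as altered in the line. All 8 were compared, 0 were called in either direction, and the median log2 ratio was 0.14. Summed over the list, the ratio was 1.18, 1.44, 1.10 and 2.05 (1.83 to 2.29) in cells with 1, 2, 3 to 9 and 10 or more Epcam UMIs. Akt2 had 35.7 CPM in Epcam-positive cells, 29.8 in matched cells and 44.5 in the fibroblast gate, and Ccne1 had 5.61, 7.05 and 4.97 CPM. These counts hold no mutation, and whether an Epcam-positive cell came from the graft or from the host cannot be told apart. Xist had a ratio of 1.65 (1.53 to 1.78), with 32 of 65 and 280 of 650 cells holding a UMI. In the 10 cells with 10 or more Epcam UMIs it was at 640 CPM with a UMI in 8, against 242 CPM in all matched cells. The fibroblast gate had 495 CPM and the macrophage gate 702 CPM of Xist. What lay behind the Xist levels was not tested.

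Cell cycle genes had lower levels in Epcam-positive cells, and 1 of them reached the size required. Of 12 listed and compared, 12 had a ratio under 1 and 1, the replication helicase gene Mcm5, was called lower at 0.13 (0.04 to 0.30), with 5 against 395 UMIs. The median log2 ratio was -0.77. Mki67 was at 0.57 (0.45 to 0.71) and Top2a at 0.57 (0.49 to 0.65). By Epcam UMIs, Top2a was at 0.25 in cells with 1 and at 1.10 in cells with 10 or more, but 1 of the latter 10 cells held 55 of their 71 Top2a UMIs, and without it the ratio was 0.29. With equal weight per cell the median of the list was -0.14.

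Immune and stress genes had few calls. Of 10 chemokine genes, 9 were compared and 1, Cxcl16, was higher at 2.60 (1.88 to 3.54), with a median log2 ratio of 0.15. Of 10 interferon response genes, 6 were compared and 1, Ifit2, was lower with 2 against 126 UMIs, with a median of 0.70. Of 5 major histocompatibility complex class II genes, 3 were compared and 0 called, with a median of 1.62 that came from 1 cell holding 39 of 41 H2-Aa and 41 of 53 Cd74 UMIs. Ccl2 was alike, with 130 of 144 UMIs in 1 cell. Of 9 stress genes, 8 were compared and 2 were lower, Hspa1a at 0.43 and Hmox1 at 0.44, with a median of -0.29.

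Markers of other cell types were low in Epcam-positive cells, with exceptions in single cells. Summed over 10 macrophage markers the level was 47.9 CPM in Epcam-positive and 63.9 CPM in matched cells, with Adgre1 and Fcgr1 at 0 in Epcam-positive cells. Neutrophil markers summed to 3.57 and 7.92 CPM, and 118 of 155 UMIs of matched cells were in 1 cell, without which they had 1.90 CPM. Lymphocyte markers summed to 1.02 and 0.72 CPM with Cd3e and Cd3d at 0, and endothelial markers to 7.14 and 9.40 CPM with Kdr, Emcn and Cldn5 at 0. Fibroblast markers summed to 407 and 700 CPM, and 477 of 798 UMIs of Epcam-positive cells were in 1 cell. In the 10 cells with most Epcam they summed to 35.7 CPM, with Pdgfra, Pdgfrb and Lum at 0. Erythroid genes summed to 684 and 185 CPM, and 1318 of 1341 UMIs were in 1 Epcam-positive cell, without which the level was 11.99 CPM. In matched cells 3376 of 3616 erythroid UMIs were in 1 cell, without which the level was 12.3 CPM. Pancreatic acinar genes, which the dissociated omental tissue also held, summed to 51.5 CPM in Epcam-positive and 240 CPM in matched cells. A single cell held 53 of 101 of these UMIs in the first group and 2138 of 4698 in the second. Without that cell the levels were 24.5 and 131 CPM.

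Markers of epithelia that line nearby organs gave mixed values. Oviduct secretory markers (Pax8, Pax2, Wfdc2, Sox17 and Ovgp1) summed to 1103 and 556 CPM and to 2102 CPM in the 10 cells with most Epcam, mostly from Wfdc2, with Sox17 at 0. Pax8, a factor of fallopian tube secretory cells, was higher at 3.36 (2.49 to 4.50) with a UMI in 24 of 65 cells, and Pax2 was at 1.21. Intestinal markers summed to 72.9 and 8.22 CPM. The 2 compared, the galectin gene Lgals4 at 10.6 (7.40 to 15.3) and the cadherin gene Cdh17 at 6.84 (4.86 to 9.59), were higher, while the defining factors Cdx1 and Cdx2 were at 0 in both groups and Fabp2 and Muc2 were at 0 in Epcam-positive cells. Pancreatic ductal markers summed to 176 and 200 CPM with Pdx1 and Sctr at 0. Mesothelial markers summed to 429 and 552 CPM, nearly all from Msln, with Upk3b, Lrrn4 and 4 others at 0. Ciliated cell markers summed to 8.67 and 2.86 CPM, and the 7 granulosa and theca genes were at 0 in Epcam-positive cells. The part of any of these cell types in the values above was not tested.

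The KPCA.FSTKO_hFSTL3 library held fewer Epcam transcripts. The same rule gave 28 Epcam-positive cells among 1979 keratin-rich cells (1.41%, interval 0.942 to 2.04), with 33 Epcam UMIs, 25 of the cells with 1 and 4 UMIs at most. The level over keratin-rich cells was 1.14 CPM (0.784 to 1.60) against 4.91 CPM (4.47 to 5.38) in KPCA.FSTKO. In KPCA.FSTKO 10 cells held 68.9% of those Epcam UMIs. At 5000 UMIs per barcode the shares were 0.531% (0.214 to 1.09) and 0.999% (0.665 to 1.44). Exclusion by Ptprc and Pecam1 removed more barcodes there, leaving 1979 of 3516 past the keratin cut against 3487 of 3720, and the libraries differed in mitochondrial share as given above.
Set against 280 matched cells of their own library, the 28 cells gave few UMIs to compare. Of the 204 genes called higher in KPCA.FSTKO, 63 reached 100 UMIs, 36 had a ratio above 1 and 0 had a ratio of at least 2, near the 0.201% of all 6466 genes compared. Their median log2 ratio was 0.06 against -0.03 over all genes. Junction genes under 100 UMIs were mixed, and no share over all genes at such low counts is given here. Of 17 tight junction genes, 11 had UMIs in both groups and 7 of these had a ratio of at least 2. The interval was above 1 for 4 and below 1 for 0. With 280 matched cells against 28, a single UMI could give such a ratio. Marveld2 had 1 and 4 UMIs and a ratio of 2.49, and Cldn23 1 and 2 UMIs and 4.99. The count of ratios of at least 2 therefore does not show that the contrast recurred. Left out of the 11 were Crb3 with 0 and 12 UMIs, Cldn1 with 0 and 8, and Cldn6 and Tjp3 with 0 and 2 each, which went the other way. Cldn3 had 14 and 28 UMIs and a ratio of 4.99 (2.43 to 9.80), with a UMI in 5 of 28 cells. Ocln had 6 and 8 UMIs and a ratio of 7.48 (2.14 to 24.6), from 2 of 28 cells. Patj had a ratio of 3.45 (1.42 to 7.61), with a UMI in 6 of 28 cells. Cldn7 had 2 and 2 UMIs, a ratio of 9.98 with a wide interval (0.723 to 138), and Cldn4 had 0 in both groups. Of 16 adherens junction and desmosome genes, 12 had UMIs in both groups and 4 had a ratio of at least 2, a count with the same limit. The Cdh1 ratio was 1.16 (0.60 to 2.06). Outside the 12, Pkp1 had 0 and 23 UMIs, Evpl 0 and 5, Nectin4 0 and 2 and Dsc2 1 and 0. Elf3 had 0 and 20 UMIs, and the Krt8 ratio was 0.95 (0.86 to 1.04). Over all barcodes of KPCA.FSTKO_hFSTL3, those removed by the filters or outside the keratin-rich rule included, there were 82 Epcam UMIs in 72 barcodes and 5 at most in 1, so none reached 10. A difference between genotypes cannot be told apart from a difference between 2 libraries.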

How the data were processed

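Dissociated omental tumors were measured by single-cell RNA sequencing with a 10x Genomics 3-prime kit, in 1 library per genotype from 4 pooled tumors. Per the methods, the authors aligned reads to the mm10 reference with Cell Ranger, version 3.1.0 in the methods and processing notes and version 7.2.0 in the matrix headers, and deposited raw UMI counts of 32285 genes per barcode. The stated filters (mitochondrial share under 20%, more than 200 and fewer than 8000 genes) were not applied in the deposited counts and were applied here, which left 6777 of 7582 and 4041 of 4244 barcodes, while the study states 7582 and 4244 cells after quality control. No doublet removal is described by the study, and none was done here.

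Matching ran from the deepest Epcam-positive cell down, each taking its 10 nearest unused Epcam-negative keratin-rich cells by log UMIs. Sums were scaled by total UMIs. Intervals are exact Poisson for levels, Clopper-Pearson for shares and conditional binomial for ratios, at 95%, and cover counting error only, and counts of 0 were set to a floor of 3. Comparison gates took barcodes by summed marker UMIs, a keratin share under 0.1% and the rules on Ptprc and Pecam1 given above. Named genes are all list members described, plus, among those called, the 12 genes of largest and the 8 of smallest ratio. Esrp1, Erbb3 and others under 100 UMIs are given as counts. The members and lists were chosen with earlier results of these data known. Elapor1 and Ddit3 were not found by name, and some listed genes that were counted are not reported here. Groups by Epcam UMIs with a cut at 10, the ribosomal share, the check of 4 junction genes, the junction lists in KPCA.FSTKO_hFSTL3 and Top2a without 1 cell were added after seeing the data. Scripts ran in Python 3.11.15 (scipy 1.17.1, numpy 2.4.6, pandas 2.3.3) and were tested on simulated data. R 4.3.3 with edgeR 4.0.16 served for an alternative scaling alone.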

Additional observations from a re-analysis of the deposited data

Results flagged for a closer look

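Epcam signal lay outside the compared cells in the same library. In 55 barcodes that passed the filters but not the keratin-rich rule there were 204 Epcam UMIs. Of these barcodes, 48 had a keratin share under the cut and 81 Epcam UMIs, and 7 were past it but carried Ptprc or Pecam1 and held 123 Epcam UMIs. A single barcode with 108 Epcam UMIs and 1 Pecam1 UMI held most of them, more than any of the 65 cells. It had 7838 genes in 71821 UMIs, a keratin share of 0.834%, and 22 Cldn7, 16 Cldn4, 18 Cldn3, 34 Cdh1 and 24 Vim UMIs. The next, with 18 Epcam UMIs, had 884 genes in 12120 UMIs and 0 UMIs of Cldn7, Cldn4, Cldn3 and Vim.

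The filters on mitochondrial share and genes removed 34 barcodes with 435 Epcam UMIs, nearly as many as the 454 in the 65 cells. Of these barcodes, 19 had 8000 or more genes and held 363 Epcam UMIs, and 15 were at or over the mitochondrial limit and held 72. Without the filters, 21 of them would have passed the keratin-rich rule, with 384 Epcam UMIs, and 6 of the 21 had 10 or more. The barcode with 97 Epcam UMIs had 8422 genes, 41 Cldn7 and 8 Vim UMIs, and the barcode with 92 had 8137 genes, 37 Cldn7 and 9 Vim UMIs. The whole library held 1093 Epcam UMIs in 154 barcodes, of which 41.5% were in the 65 cells. Whether barcodes with 8000 or more genes held more than 1 cell was not tested.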

How the results depend on the processing

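Of 518 called genes with UMIs in both groups, the sign of the log2 ratio differed in 17 of 439 with a value when thinned to 5000 UMIs, in 6 with equal weight per barcode, in 3 when matched on keratin share too, in 2 with no exclusion, in 2 with no filters, in 1 at a keratin share of 0.2% and in 0 under the other 8 alternatives run on genes. Scaling by TMM shifted every log2 ratio by -0.06. The count of genes higher (204) became 308 with at least 2 Epcam UMIs, 357 without matching, 410 with equal weight per barcode, 79 when thinned to 5000 UMIs, 419 at 20 UMIs over both sums, 615 at a ratio of 1.5, 322 with no condition on single barcodes and 107 in cells with under 10 Epcam UMIs. Genes lower (316) became 632 with at least 2 Epcam UMIs, 121 with the 3 nearest cells, 671 with equal weight and 980 at a ratio of 1.5. The share of 1.86% became 1.00% with at least 2 Epcam UMIs and 0.999% when thinned. Of the list medians (log2), with at least 2 Epcam UMIs tight junctions went to 2.71, adherens junctions and desmosomes 1.16, keratins 1.30, epithelial surface 2.58, mesenchymal genes -1.52, Wnt and stem cell genes 0.44 and chemokines -1.96. Without matching, epithelial surface went to 2.50, epithelial factors 1.16 and Wnt and stem cell genes 0.70, the last to 0.079 with the 3 nearest cells. With equal weight, secreted markers went to 0.22, cell cycle -0.14, class II genes 2.86 and interferon genes 0.19. Thinned, tight junctions went to 0.28, adherens junctions and desmosomes 1.08, epithelial factors 0.52, the EGFR family -0.67 and secreted markers 0.73. At 20 UMIs, adherens junctions and desmosomes went to 2.26, epithelial surface 3.15, epithelial factors 2.10 and Wnt and stem cell genes 0.77. In cells with under 10 Epcam UMIs, an alternative chosen after seeing the data, tight junctions went to 1.33, keratins 0.60, epithelial surface 1.42 and Wnt and stem cell genes 0.47. With no filter on mitochondrial share or genes, also chosen after seeing the data, adherens junctions and desmosomes went to 1.13, keratins 1.02, epithelial surface 2.14, epithelial factors 1.09, the EGFR family 0.41, Wnt and stem cell genes 1.60, secreted markers 0.076, class II genes 0.78 and interferon genes -0.44. Matched on keratin share too, keratins went to 0.26, epithelial surface 2.16 and secreted markers -0.058. With TMM, keratins went to 0.64 and secreted markers to 0.078. At a keratin share of 0.2%, keratins went to 0.57, interferon genes 0.0091 and chemokines -0.76, and with no exclusion by Ptprc and Pecam1, class II genes went to 2.51 and interferon genes to 0.14. The cause of these shifts was not tested. The other 180 list values and 27 counts and shares moved by less than the main value's spread or under 1.5 times. A gene absent from matched cells needed 100 UMIs over the 65 cells to be called. No paired analysis was possible because there is 1 library per genotype and the labels carry no replicate numbers.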
